A study of Mus musculus with 6 samples.

Results

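The genes described here encode matricellular proteins and other secreted glycoproteins of the extracellular matrix: Olfml3, Srpx2, Srpx, Postn, Tnc, Thbs1, Thbs2, Sparc, Fn1 and Vcan. They are 10 of the 22311 genes that could be named on the arrays, and 1 probe set measured each of them. The genes were chosen by function with the ploidy differences of this experiment already known, and Olfml3 and Srpx2 had drawn notice for large differences. Their ploidy values are therefore given as a description, without a test. Matricellular proteins are secreted into the matrix but build little of its framework. They bind matrix fibres, growth factors and cell surface receptors, and so alter how cells adhere, migrate and receive signals. In bone marrow, stromal cells secrete many of them, and fibronectin and versican form part of the fibrous and hydrated matrix that the other proteins bind.

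RNA of 6 mesenchymal stromal cell cultures from mouse bone marrow was hybridised to Affymetrix arrays. Cells given this name are in general adherent and able to form bone, fat and cartilage. The 3 tetraploid cultures were a primary culture (tetraploid I), a cell line (tetraploid II) and a clone made tetraploid artificially (tetraploid III), and the 3 diploid cultures were a clone (diploid I) and a pair of primary cultures (diploid II and III). All 6 were grown in the same kind of stem cell medium, and ploidy had been assigned from DNA content and spectral karyotypes. The study's title links polyploidy of these cells to the level of the non-coding RNA H19 and to tumour formation. The labels call the samples biological repeats, but give neither the animals behind them, their age and strain, nor the cells from which the artificial clone was made. Each clone or line is 1 culture, so ploidy in those cultures cannot be told apart from the history of the clone.

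All values below are log2 expression after RMA, a method that corrects background, normalises the arrays together and summarises the probes of each set. A difference of 1 is therefore a ratio of 2-fold. The array medians lay between 4.54 and 4.78, which places a value of about 4 among the dim probe sets. Diploid III had a narrower interquartile range (2.75) than the remaining arrays (3.16 to 3.24). Of 18 stromal marker genes, 13 lay above the array median on all 6 arrays, and the list mean was between 9.09 and 9.61. Lepr, a marker of perivascular marrow stroma, was never above it, and Thy1 ranged from 3.96 in tetraploid II to 10.82 in tetraploid I. Eng was 3.80 in tetraploid II, against 8.80 to 10.78 elsewhere. Nt5e was 3.90, 4.14 and 3.95 in tetraploid I, tetraploid II and diploid III, against 6.21 to 7.76 elsewhere. Twist2 was below the array median only in diploid I, at 3.97. The artificial clone tetraploid III correlated more closely over all named probe sets with diploid I and diploid II (Pearson r of 0.984 and 0.988) than with the other tetraploid arrays (0.969 and 0.961). Diploid III also carried endothelial transcripts, with Cdh5 at 11.03 and Flt1 at 7.32 against at most 3.79 and 4.45 elsewhere. Over 12 endothelial markers its list mean was 4.94, against 3.81 and 3.87 in the other diploid cultures and 3.82 to 3.89 in the tetraploid cultures. The defining marker Pecam1 was 4.18, below that array's median, and 8 of the 12 were above the median on no array. Dim genes in general read higher on diploid III, where the lower quartile was 4.02, against at most 3.84 elsewhere. Of the marker genes, 9 of 12 endothelial, 9 of 12 myeloid and 6 of 8 lymphoid were highest there, and the reason was not tested. Tetraploid II had the highest levels of the myeloid genes Cd68 (7.97, at most 4.96 elsewhere) and Lyz2 (at most 4.48 elsewhere). The mean of the 12 myeloid markers was 3.91 to 4.40 in the tetraploid and 3.86 to 4.32 in the diploid cultures, and the pan-leukocyte gene Ptprc stayed between 3.72 and 4.25. The list means on the arrays were 3.65 to 3.97 for lymphoid, 3.82 to 4.46 for erythroid and megakaryocyte, 4.004 to 4.65 for epithelial and 6.62 to 8.57 for smooth muscle markers. Where leaving out diploid III or tetraploid II turned the sign of a described gene's ploidy difference, that value is given below, with some of the larger shifts.

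The genes of the group that separated the ploidies without overlap were Olfml3 and Srpx2. Their promoter windows are shown first, because they belong to the genes with the clearest split, and each runs from 250 bases before to 50 bases after the RefSeq transcript start (GRCm38.p6), 5′ to 3′ along the transcript. The Olfml3 window lies at chr3:103737952-103738251 on the minus strand and the Srpx2 window at chrX:133908175-133908474 on the plus strand. Capitals mark matches to any of 7 motifs searched on both strands.
Olfml3: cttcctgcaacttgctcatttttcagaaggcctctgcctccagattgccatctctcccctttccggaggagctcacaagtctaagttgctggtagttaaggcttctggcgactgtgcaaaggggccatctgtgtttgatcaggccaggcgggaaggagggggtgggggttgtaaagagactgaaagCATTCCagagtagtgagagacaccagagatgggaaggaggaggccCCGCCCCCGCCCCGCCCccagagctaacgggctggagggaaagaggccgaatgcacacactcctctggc
Srpx2: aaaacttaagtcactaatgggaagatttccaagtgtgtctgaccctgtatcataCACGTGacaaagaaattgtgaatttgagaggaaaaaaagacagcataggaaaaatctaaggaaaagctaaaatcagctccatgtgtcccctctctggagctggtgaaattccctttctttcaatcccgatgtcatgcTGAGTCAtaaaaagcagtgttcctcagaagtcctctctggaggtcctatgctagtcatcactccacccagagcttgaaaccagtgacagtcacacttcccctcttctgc
The Olfml3 window had a GC content of 58.0%, above the median of 52.7% over all 32851 windows, and that of Srpx2 was lower, at 43.3%. In Olfml3 the capitals are a match to the TEAD motif GGAATG on the reverse strand, 64 bases before the start, and 3 GC boxes (GGGCGG, reverse strand) whose first bases lie 19, 13 and 8 bases before it. The last pair of GC boxes overlap each other by 1 base. GGAATG was found in 14.7% of all windows and GGGCGG in 35.7%. In Srpx2 they are the MYC type E-box CACGTG, 196 bases before the start, and an AP-1 match (TGANTCA) 59 bases before it. CACGTG occurred in 7.15% of all windows and TGANTCA in 7.81%. No motif was shared between the windows of these genes. The matches are letters in a window and say nothing about binding in these cells.

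Olfml3 encodes a secreted glycoprotein with an olfactomedin domain. In Xenopus its ortholog brings the BMP antagonist chordin together with the protease that cleaves it. Olfml3 (probe set 10500808) was 11.23, 11.69 and 9.44 in tetraploid I, II and III, and 7.78, 8.50 and 6.48 in diploid I, II and III. Every tetraploid culture was above every diploid culture, and the artificial clone came closest to the diploid range. The means were 10.79 ± 1.19 and 7.58 ± 1.02 (SD, n = 3 each), a difference of 3.20 (SE 0.77) or 9.21-fold. Leaving out 1 array at a time gave differences between 2.65 (without diploid III) and 3.88 (without tetraploid III).

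Srpx2 encodes a sushi repeat protein that binds the urokinase receptor in human cells. Srpx2 (probe set 10601659) was 7.22, 7.77 and 7.005 in tetraploid I to III, against 3.77, 5.02 and 4.53 in diploid I to III. The tetraploid cultures lay close together and well above the diploid cultures, of which diploid I and III were below their array medians. The means were 7.33 ± 0.39 and 4.44 ± 0.63 (SD, n = 3 each), a difference of 2.89 (SE 0.37) or 7.42-fold. Because the diploid signal was near the dim end of the scale, the size of that ratio is uncertain. It was between 2.56 and 3.18 on the log2 scale with 1 array left out. In the primary cultures alone Olfml3 differed by 3.74 and Srpx2 by 2.44, and in the line and clones alone by 2.79 and 3.62. The shared direction follows from the lack of overlap and adds no support. For Olfml3 the primary difference was 2.73 without diploid III, and the difference in the clones was 1.66 without tetraploid II. The rule that chose the genes used this contrast, so nothing is read from the count of 2 genes without overlap in the tetraploid direction and 0 in the other. Over all 25917 named probe sets 4.97% were higher without overlap in tetraploid cultures and 7.1% lower.

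Srpx, the sushi repeat relative of Srpx2, is a secreted or membrane-bound protein whose rat transcript is reduced by the oncogene v-src. Its values (probe set 10603583) were 6.84, 7.65 and 4.55 in tetraploid I to III, against 6.23, 5.12 and 6.11 in diploid I to III. The artificial clone had the lowest value of all, below its array median, and the other tetraploid cultures had the highest. The means of 6.35 ± 1.60 and 5.82 ± 0.61 (SD, n = 3 each) differed by 0.53 (SE 0.84), less than the spread within the tetraploid group. The difference was 1.42 without tetraploid III and -0.12 without tetraploid II.

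**Figure D1:**
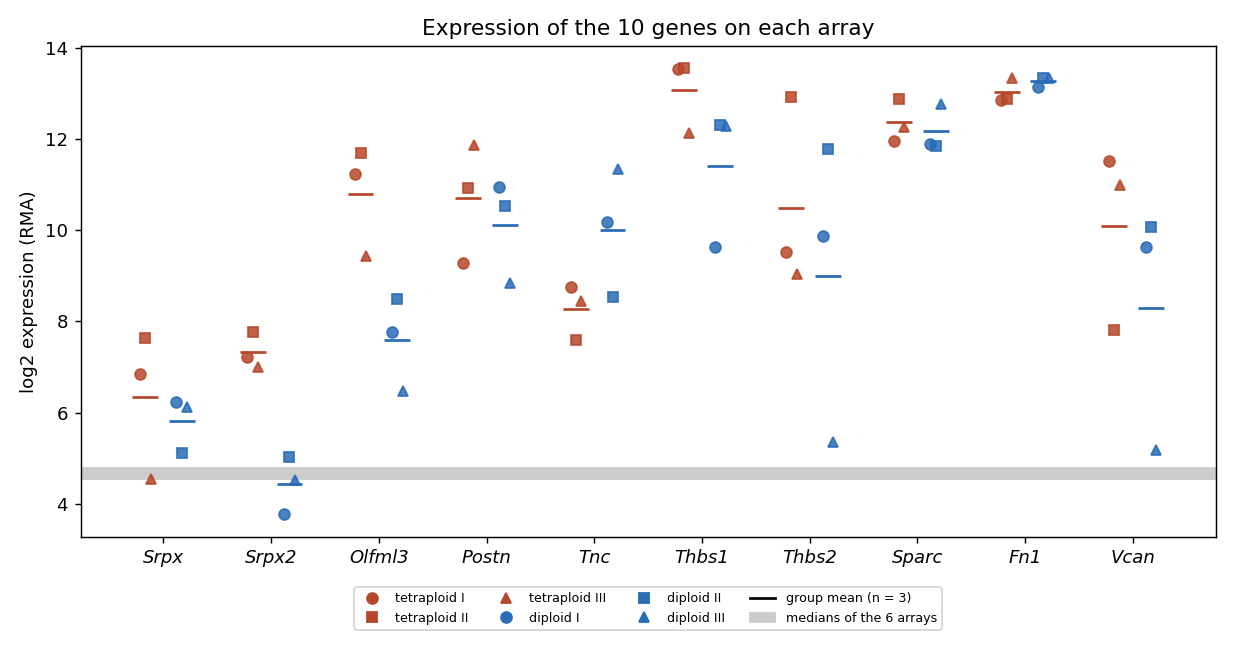
Log2 expression (RMA, vertical axis) of the 10 genes on each of the 6 arrays, tetraploid in red and diploid in blue, with lines at the group means (n = 3) and a grey band over the range of the array medians (4.54 to 4.78). Olfml3 and Srpx2 show no overlap between the groups, and Thbs2 and Vcan lie at 5.35 and 5.18 in diploid III.

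Postn encodes periostin, a protein of bone surfaces and tooth ligament that binds fibronectin, collagen and integrins. Postn (probe set 10492021) was 9.28, 10.94 and 11.88 in tetraploid I to III, against 10.95, 10.54 and 8.83 in diploid I to III. The ploidy groups interleaved, with the extremes in tetraploid III and diploid III. The means were 10.70 ± 1.32 and 10.11 ± 1.12 (SD, n = 3 each), a difference of 0.59 (SE 0.85). It was 1.30 without tetraploid I, and it was below 0 without tetraploid III or diploid III, at -0.048 for the latter.

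Tnc encodes tenascin-C, which weakens cell adhesion to fibronectin and appears in remodelling tissue and stem cell niches. Tnc (probe set 10513739) was 8.75, 7.59 and 8.46 in tetraploid I to III, against 10.19, 8.53 and 11.34 in diploid I to III. Diploid I and III were above every tetraploid culture, and diploid II lay inside the tetraploid range. The means were 8.27 ± 0.61 and 10.02 ± 1.41 (SD, n = 3 each), a difference of -1.75 (SE 0.76) or 3.36-fold in favour of the diploid cultures. Tnc and Fn1 were the genes of the group with a lower tetraploid mean. The Tnc difference was -1.09 without diploid III and -2.50 without diploid II.

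The thrombospondins bind CD47 and CD36 on cells and restrain the growth of vessels, and thrombospondin-1 also activates latent TGF-beta. Thbs1 (probe set 10474700) was 13.54, 13.55 and 12.14 in tetraploid I to III, against 9.64, 12.31 and 12.28 in diploid I to III. Tetraploid I and II were above every diploid culture, while the artificial clone was just below diploid II and III. Diploid I stood far below the other 5 arrays. The means of 13.08 ± 0.81 and 11.41 ± 1.54 (SD, n = 3 each) differed by 1.67 (SE 0.85) or 3.18-fold, and by 0.78 without diploid I.

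Thbs2 encodes thrombospondin-2, which binds matrix metalloproteinase 2 and is needed for normal collagen fibrils in mouse skin. Thbs2 (probe set 10447951) was 9.52, 12.93 and 9.05 in tetraploid I to III, against 9.87, 11.79 and 5.35 in diploid I to III. Tetraploid II was the highest and diploid III the lowest, a range of 7.57 on the log2 scale or 191-fold. The ploidy means were 10.50 ± 2.12 and 9.004 ± 3.31 (SD, n = 3 each), and their difference of 1.49 (SE 1.92) was smaller than either SD. It became 0.28 without tetraploid II, -0.33 without diploid III and -1.55 without both diploid III and tetraploid II, and it was 2.89 without diploid II.

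Sparc encodes osteonectin, a collagen-binding protein abundant in bone. Sparc (probe set 10386058) was 11.97, 12.88 and 12.26 in tetraploid I to III, against 11.89, 11.85 and 12.78 in diploid I to III. The arrays lay within about 1 log2 unit, with tetraploid II and diploid III together at the top. The means of 12.37 ± 0.46 and 12.17 ± 0.52 (SD, n = 3 each) differed by 0.19 (SE 0.35). The sign of that difference turned without tetraploid II (-0.060) and when the arrays were scaled to a common interquartile range (-0.22). Without diploid III the difference was 0.50.

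Fn1 encodes fibronectin, which cells assemble into fibrils through integrins and on which other matrix proteins are laid down. Fn1 (probe set 10355403) was 12.85, 12.89 and 13.34 in tetraploid I to III, against 13.15, 13.34 and 13.33 in diploid I to III. It was bright in every culture and ranged over 0.49, or 1.40-fold. The means of 13.03 ± 0.27 and 13.27 ± 0.11 (SD, n = 3 each) differed by -0.25 (SE 0.16). Without tetraploid III, which shared the level of the diploid cultures, the difference was -0.40, without tetraploid I it was -0.16, and with the arrays scaled to a common interquartile range it was -0.67.

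Vcan encodes versican, a large chondroitin sulfate proteoglycan that binds hyaluronan. Vcan (probe set 10410931) was 11.51, 7.81 and 10.98 in tetraploid I to III, against 9.63, 10.07 and 5.18 in diploid I to III. Tetraploid I and III were above every diploid culture, tetraploid II was below diploid I and II, and diploid III was the lowest. The range of 6.33 corresponds to 80.5-fold. The means of 10.10 ± 2.00 and 8.29 ± 2.705 (SD, n = 3 each) differed by 1.81 (SE 1.65), by 0.25 without diploid III and by 2.95 without tetraploid II.

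The promoter windows of Thbs2 and Vcan, the genes of the group with the widest ranges and both lowest in diploid III, lie at chr17:14694213-14694512 and chr13:89742463-89742762, both on the minus strand of GRCm38.p6. They are printed like those above.
Thbs2: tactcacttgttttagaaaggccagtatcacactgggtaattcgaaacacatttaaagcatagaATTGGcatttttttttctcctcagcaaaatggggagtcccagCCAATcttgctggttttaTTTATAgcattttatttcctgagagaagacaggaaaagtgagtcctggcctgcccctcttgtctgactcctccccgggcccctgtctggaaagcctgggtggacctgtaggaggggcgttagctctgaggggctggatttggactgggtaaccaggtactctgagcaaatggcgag
Vcan: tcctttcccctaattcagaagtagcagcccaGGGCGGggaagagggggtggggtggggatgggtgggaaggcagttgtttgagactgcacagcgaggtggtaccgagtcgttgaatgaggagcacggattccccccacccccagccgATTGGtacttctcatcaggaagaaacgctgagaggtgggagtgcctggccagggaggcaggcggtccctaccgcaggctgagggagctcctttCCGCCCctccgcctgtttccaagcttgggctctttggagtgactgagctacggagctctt
GC contents were 48.3% for Thbs2 and 61.0% for Vcan. Thbs2 held 2 CCAAT boxes, 186 bases before the start on the reverse strand and 144 bases before it on the forward strand, and TATAAA on the reverse strand 126 bases before it. Vcan held CCAAT on the reverse strand 103 bases before the start and GGGCGG at 219 bases (forward) and 10 bases (reverse) before it. CCAAT, the 1 motif found in both windows, was present in 37.4% of all windows and TATAAA in 13.6%. RefSeq windows were matched for 8 of the 10 genes, 10 windows in all, and not for Thbs1 and Fn1. Over these 10 windows GGGCGG was found in 5, TATAAA in 4, CCAAT in 3, and the MYC type E-box, the AP-1 motif, GGAATG and the E-box CAGCTG in 1 each. The overlapping windows of Tnc hold the same TATAAA and the same GGGCGG, which are counted in both. CAGCTG was found in 16.3% of all windows.

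Most of the genes varied widely among cultures of 1 ploidy. The SD within the ploidy groups was 2.78 for Thbs2 and 2.38 for Vcan, at the 99.9th and 99.7th percentile of all named probe sets. It was between 1.09 and 1.23 for Thbs1, Postn, Srpx, Olfml3 and Tnc, 0.53 for Srpx2, 0.50 for Sparc and 0.21 for Fn1. The median over the 10 genes was 1.16, against 0.22 for all named probe sets, and 7 of the 10 lay above the 95th percentile. That reference includes the dim probe sets, and no comparison with probe sets of similar brightness is given. Fn1 alone lay below the median of all probe sets, at the 47.7th percentile. Tetraploid II had the highest value of the 6 arrays for Srpx, Srpx2, Olfml3, Thbs1, Thbs2 and Sparc. Diploid III had the lowest value for Olfml3, Postn, Thbs2 and Vcan, and the highest for Tnc.

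**Figure D2:**
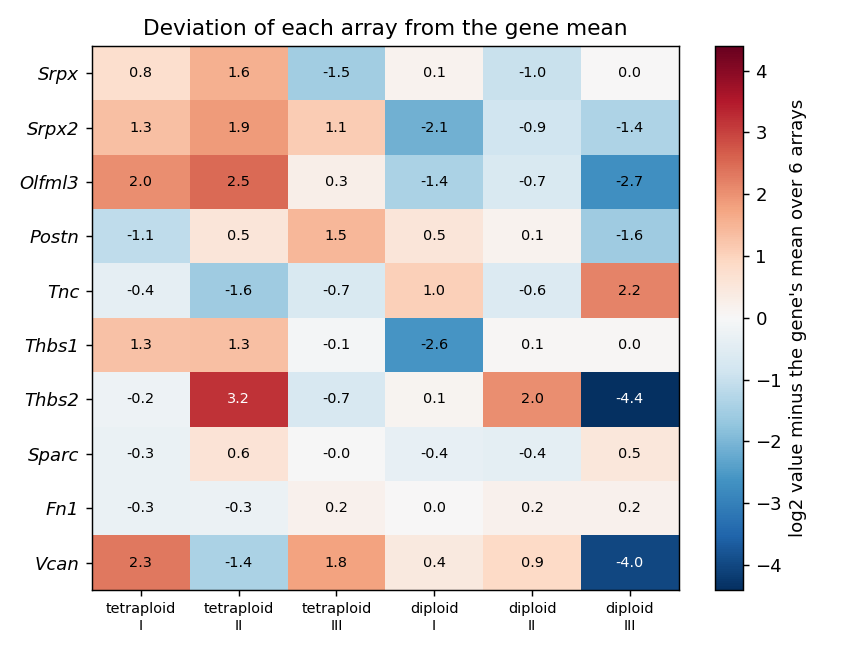
Each cell gives the log2 value of a gene (row) on an array (column) minus that gene's mean over the 6 arrays, red above and blue below 0. The largest deviations belong to Thbs2 and Vcan in diploid III and to Thbs2 in tetraploid II, while Fn1 and Sparc stay pale across the row.

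Of the 10 genes, 8 had a higher tetraploid mean and 2 a lower one, and the median difference was 1.04, against -0.048 over all genes, of which 39.1% were higher in tetraploid cultures. Without tetraploid II, or without diploid III, 6 of 10 were higher and the median was 0.37, and without both it was 0.13 with 6 higher. In the count of named probe sets past an unadjusted p under 0.05 (limma), 797 were higher in the tetraploid cultures, or 3.08%, and 535 lower, or 2.06%. This split depends on scaling, being 711 and 743 after quantile normalisation, 649 and 648 after median centring and 462 and 932 after scaling to a common interquartile range. No probe set passed a Benjamini-Hochberg adjusted p under 0.05 in limma (0 of 25917, 0%, smallest adjusted p = 0.876). An ordinary linear model gave 1124 at an unadjusted p under 0.05 and 0 after adjustment. The same counts came from the p-values in the authors' deposited table.

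**Figure D3:**
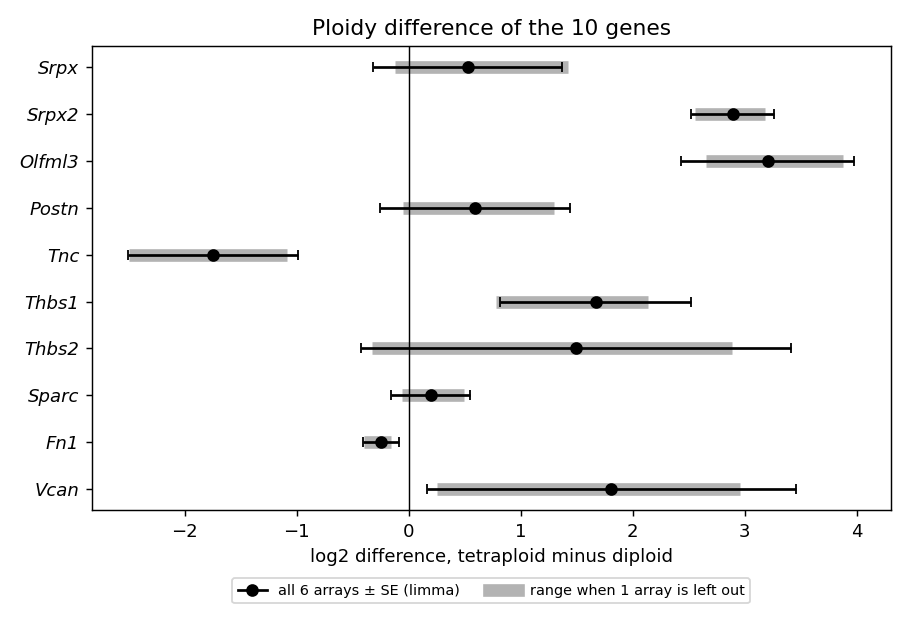
Difference in log2 expression between tetraploid and diploid cultures (horizontal axis) for the 10 genes, with points and bars for the value and SE over 6 arrays (limma) and grey bars for the range when 1 array is left out. The grey bars of Srpx, Postn, Thbs2 and Sparc cross 0, and those of Srpx2 and Olfml3 stay above 2.

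Primary cultures were set against lines and clones with ploidy as a term in the model, a comparison that the choice of genes did not use. Postn was lower in primary cultures, at 9.28 (tetraploid I), 10.54 (diploid II) and 8.83 (diploid III), than in the line and clones, at 10.94 (tetraploid II), 11.88 (tetraploid III) and 10.95 (diploid I). The groups by origin did not overlap. The share of all named probe sets for which this holds is not given here, so nothing is read from it. The means were 9.55 ± 0.89 and 11.26 ± 0.54 (SD, n = 3 each), and the fitted difference, primary minus line or clone, was -1.70 (SE 0.60). It had an unadjusted p of 0.0396 and did not pass the adjusted threshold (limma, adjusted p = 0.99995). Thbs1 ran the other way by 1.68 (SE 0.62), with means of 12.71 ± 0.72 and 11.78 ± 1.98 (SD, n = 3 each) that overlapped, and an unadjusted p of 0.0452 (limma, adjusted p = 0.99995). With 1 array left out, Postn was under an unadjusted p of 0.05 only without diploid II, and Thbs1 only without tetraploid I or tetraploid II (limma), and neither passed after adjustment. The Thbs1 difference by origin was 0.69 without diploid I, 2.66 without tetraploid I and 0.93 without ploidy in the model. These were the 2 of 10 genes at an unadjusted p under 0.05, against 3.37% of all named probe sets (874), and none of the 10 passed after adjustment (limma), as for all probe sets (0%). The ordinary linear model gave 689 probe sets unadjusted and 0 adjusted. For the other 8 genes the sign of the origin difference turned in at least 1 alternative setting.

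Whether the ploidy difference itself depended on the origin of the cultures was tested as an interaction in limma. For Vcan the tetraploid minus diploid difference was 3.89 in primary cultures and -0.23 in the line and clones. Without diploid III the primary value was 1.44, and without tetraploid II the line and clone value was 1.35. Srpx (1.22 and -0.13), Postn (-0.41 and 0.46) and Sparc (-0.35 and 0.68) also had opposite signs, and the other 6 genes had the same sign in both when all arrays were used. Thbs1 differed by 1.24 in primary cultures and 3.21 in the line and clones, Tnc by -1.18 and -2.16, Thbs2 by 0.95 and 1.12, and Fn1 by -0.48 and -0.036. Without diploid III the primary difference of Thbs2 was -2.27, that of Tnc 0.23 and that of Sparc 0.12. Without tetraploid II the difference in the clones was -0.82 for Thbs2, 0.19 for Fn1 and -1.67 for Srpx. Which genes had opposite signs in the origins thus turned on single arrays, and 5 of 10 did without diploid III and 5 of 10 without tetraploid II, against 4 with all arrays. None of the 10 interactions had an unadjusted p under 0.05, where 2.68% of all named probe sets did (694). After adjustment 0 of the 25917 passed (0%), with a smallest adjusted p of 0.776 (limma), and the ordinary linear model gave 758 unadjusted and 0 adjusted. For Srpx the gap between the origins was 2.89 without tetraploid II, against 1.35 with all arrays. Without tetraploid II or tetraploid III each gene's own scatter comes from diploid II and III alone, so no p-values of single genes are given for those fits. With 3 primary cultures and 3 lines or clones, 1 ploidy class in each origin rests on 1 array, so these differences carry wide errors.

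Other genes of the same protein families were taken from a list of 24, all measured. This list and the related lists below were also chosen with earlier results of these data known, so nothing is read from their counts. In the tetraploid mean 10 were higher and 14 lower, with a median difference of -0.037. An unadjusted p under 0.05 (limma) was reached by 3, all higher, against 3.08% higher and 2.06% lower over all named probe sets. Without overlap 2 were higher and 2 lower, against 4.97% and 7.1% of all named probe sets. None passed after adjustment. Sned1, which encodes a matrix protein with sushi and fibronectin type III domains, was 7.88, 10.16 and 7.99 in tetraploid I to III, against 4.19, 4.97 and 6.95 in diploid I to III. The groups did not overlap, and the difference was 3.31 (SE 0.94, limma unadjusted p = 0.0143, adjusted p = 0.876). Svep1, a large sushi domain protein that is needed for lymphatic vessels in mice, was 7.84, 10.44 and 8.79 against 4.53, 6.83 and 7.22, also without overlap. It differed by 2.83 (SE 0.96, limma unadjusted p = 0.0285, adjusted p = 0.876). Tgfbi, the periostin homolog, was 8.27, 8.15 and 5.98 against 6.14, 4.64 and 4.89, where the artificial clone fell among the diploid cultures. It differed by 2.24 (SE 0.75, limma unadjusted p = 0.0262, adjusted p = 0.876). Without tetraploid II the differences were 2.57 for Sned1, 2.12 for Svep1 and 1.90 for Tgfbi. Among the brightest of the list, Fstl1, a follistatin-like relative of Sparc, differed by -0.040 (SE 0.44), or 0.32 without diploid III, and Olfml2b, an olfactomedin domain relative of Olfml3, by 0.63 (SE 0.27), or 0.39 without diploid III. Sparcl1 (7.53), Smoc2 (9.03), Olfml1 (6.30) and Tnxb (6.44) were highest in tetraploid II, with at most 4.74 on any other array, and were picked out after their values were seen.

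Of 25 other matricellular genes, 15 had a higher and 10 a lower tetraploid mean, with a median of 0.20 and none at an unadjusted p under 0.05. Without overlap 2 were higher and 0 lower, against 4.97% and 7.1% of all named probe sets. Ccn3, a regulatory CCN protein, was 8.05, 13.39 and 4.61 in tetraploid I to III, against between 4.04 and 4.22 in the diploid cultures. The groups did not overlap, but tetraploid III lay close to the diploid cultures, and the difference of 4.57 (SE 2.17) was 2.22 without tetraploid II. Nid2, a basement membrane protein, was 10.62, 9.10 and 9.61 against 8.83, 8.45 and 6.18, also without overlap, a difference of 1.96 (SE 0.80) that was 1.14 without diploid III. Ecm1 differed by 0.75 (SE 0.34), and the bright genes Ccn1, Spp1 (osteopontin) and Mfge8 by -0.55 (SE 0.66), 0.65 (SE 0.96) and -0.20 (SE 0.32). Without diploid III the values were -0.016, -0.35 and -0.054. Of the 10 genes for hyalectans, link proteins and hyaluronan receptors, the partners of versican, 2 were higher and 8 lower, with a median of -0.14 and none at an unadjusted p under 0.05. The hyaluronan receptor Cd44 differed by -0.69 (SE 0.45), Hmmr by -0.59 (SE 0.43), Tnfaip6, which crosslinks hyaluronan, by -1.04 (SE 1.18) and the dim Hapln2 by -0.21 (SE 0.12). Without tetraploid II the values were -0.29 for Cd44 and -0.40 for Tnfaip6, and without diploid III they were -0.43 and -2.12.

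Of 22 genes for receptors and other partners on the cell surface, 10 were higher and 12 lower in the tetraploid mean, with a median of -0.053 and none at an unadjusted p under 0.05. Itgb5, an integrin subunit that binds vitronectin and periostin, differed by 0.89 (SE 0.37), Cd47, a thrombospondin receptor, by -0.56 (SE 0.33) and the dim Itga4 by -0.29 (SE 0.16). Without diploid III Itgb5 differed by 0.59, and without tetraploid II Cd47 differed by -0.28. Itgb1, the shared subunit of the fibronectin receptor, was between 11.72 and 12.005 on all arrays and differed by 0.065 (SE 0.10). Lrp1, which takes up thrombospondins, differed by 0.12 (SE 0.17) and Calr, its co-receptor, by 0.30 (SE 0.60), or -0.083 without tetraploid II. Plaur, the urokinase receptor that SRPX2 binds in human cells, was 6.81, 6.84 and 7.33 in tetraploid I to III, against 8.42, 7.12 and 7.22 in diploid I to III. It differed by -0.59 (SE 0.39), with the highest value in diploid I.

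**Figure D4:**
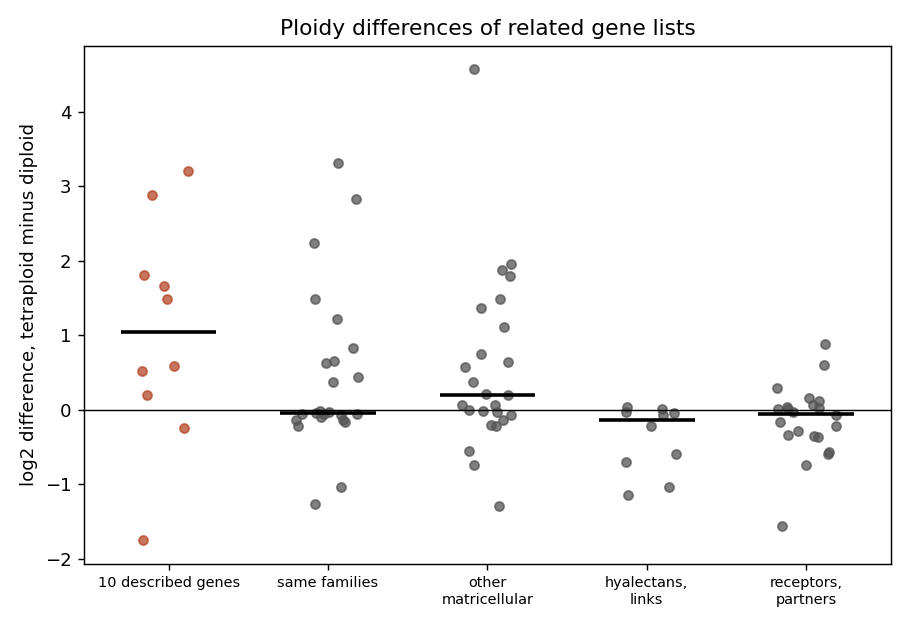
Tetraploid minus diploid difference in log2 expression (vertical axis) of every measured gene in the 10 described genes and in 4 related lists, with a bar at each median. The medians of the related lists lie between -0.14 and 0.20, and that of the 10 genes, which were chosen with these differences known, lies at 1.04. The related lists were also chosen with earlier results of these data known.

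The pattern of each gene over the 6 arrays was set against those of 2277 other genes with a mean of at least 7 and an SD of at least 0.5, and the closest are named as a description. With 6 points that share arrays and groups, high correlations arise among many genes, and no p-value is given. Olfml3 was closest to Ikbip (Pearson r 0.992) and Vps13b (0.992), Srpx2 to Lima1 (0.993), a regulator of actin filaments, and Hsd17b11 (0.988), a lipid droplet enzyme, and Srpx to Pcgf1 (0.963) and Mxra7 (0.960). Vcan was closest to Fhl2 (0.999), a LIM domain cofactor, which was 10.05, 7.88 and 9.63 in tetraploid I to III, against 8.85, 9.24 and 6.35 in diploid I to III. Both genes thus had the same order over all 6 arrays, with the lowest value in diploid III. Thbs2 was closest to Frrs1 (0.991) and Itih2 (0.985), the latter a carrier of hyaluronan in serum, Thbs1 to Ube4a (0.986) and Glrx (0.977), and Postn to Usp6nl (0.979) and Nnmt (0.972). Tnc was closest to Ddah1 (0.970) and Nfkbia (0.960), the NF-kappaB inhibitor, both highest in diploid III as Tnc was. Sparc was closest to Atoh8 (0.984) and Aplp2 (0.981), and Fn1 to Tmem223 (0.950) and complement C3 (0.933). The second gene for Vcan was Aurkaip1 (0.983). Among the 10 genes themselves, the closest pair was Srpx2 and Olfml3 (0.899), followed in size by Olfml3 and Tnc (-0.861), Srpx and Fn1 (-0.853), and Tnc and Thbs2 (-0.849), all over 6 arrays.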

How the data were processed

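Per the submitters' processing notes, RMA and Partek (no versions named) gave the values that the authors deposited, log2 expression of each probe set. The authors' deposited comparison table held, per the file headers, a fold with its p-value, diploid relative to tetraploid, the fold being a signed score with no values between -1 and 1, for each of 35399 probe sets. It supplied the gene symbols, and its folds, put on the log2 scale, matched group differences computed from the value table within 7.87e-05. Another 6 columns of per-sample values in it were not used. The genome build is not given in the sources used here. Symbols were updated through a RefSeq table (GRCm38.p6): 19017 were current, 2382 matched as a synonym and 950 were kept. Of several probe sets for a gene, the one with the highest mean was used.

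Tests were fitted in limma 3.58.1 (R 4.3.3) over all 25917 named probe sets and 6 arrays, two-sided, unfiltered and adjusted by Benjamini-Hochberg: ploidy, origin with ploidy as a term, and their interaction. No scan dates or batches were given. No source ties the cultures to animals, so p-values set each difference only against the scatter among these cultures. The number of arrays limits precision, and an exact permutation test of 3 against 3 cannot go below 0.1. The genes and lists were chosen with earlier results of these data known. Beyond the 10 genes, each of the 4 lists of related genes names its 3 smallest unadjusted ploidy p-values and 3 highest means, and each gene its 2 closest patterns. Cdh5, Flt1, Pecam1, Cd68, Lyz2, Ptprc, Thy1, Lepr, Eng, Nt5e, Twist2 and Plaur were named besides. Same-numbered arrays did not deviate together (correlations of -0.117, -0.149 and -0.337), so the numbers were not used as pairs. Promoter windows came from RefSeq. Alternatives were other scalings, leaving out dim probe sets, array weights, a trended robust variance, a replicate block, origin as a term for ploidy, averaged probe sets and leaving out arrays. Figures used matplotlib 3.10.9 in Python 3.11.15.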

Additional observations from a re-analysis of the deposited data

How the results depend on the processing

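The groups did not overlap for Srpx2 and Olfml3 under the 3 rescalings of the arrays, the settings in which this could change, and for genes chosen on this contrast it is no sign of stability. With the arrays scaled to a common interquartile range, Fn1 also did not overlap, with the tetraploid cultures lower. Tnc, Thbs1, Fn1 and Vcan kept their direction, while Srpx, Postn, Thbs2 and Sparc turned in 1 to 3 of 17 settings, including array weights for Thbs2. Between 6 and 8 of the 10 genes were higher in tetraploid cultures. The count of genes without overlap was 2 to 5 when 1 array was left out. It was 5 without tetraploid II and diploid III, a setting added after seeing the data. Fewer arrays make a lack of overlap easier. The share over all named probe sets in these settings is not given here, so nothing is read from the counts. The 1332 probe sets at an unadjusted ploidy p under 0.05 (limma) became 795 without dim probe sets, which were then not tested, 2205 with array weights, 1400 with the replicate block and 768 to 1910 with 1 array left out (768 without tetraploid II). After adjustment 0 passed in each setting except 1 without tetraploid III (Lgr5) and 1 without diploid II (H19), both named after their values were seen, a range of 0 to 1. The replicate block changed no call. The origin count of 874 became 482 without dim probe sets, 1823 with array weights, 1679 without tetraploid II and diploid III, and 546 to 1687 with 1 array left out (546 without tetraploid I, 578 without tetraploid III and 1687 without diploid II). The interaction count of 694 became 274 without dim probe sets and 462 (without tetraploid II) to 2491 (without diploid II) with 1 of 4 arrays left out, runs added after seeing the data, with 1086 without diploid III; without tetraploid I or diploid I it cannot be estimated, as no other array shares their ploidy and origin. The causes of these shifts were not tested. In the interaction runs with 1 array left out, each gene's own scatter comes from a single pair of arrays, so nothing is read from those counts. Dim signal limits the ratio for Srpx2 most, since its diploid values lay near or below the array medians.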
